A study of Mus musculus with 2 samples.

Results

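The 10 genes described here are Mfap5, Mfap4, Mfap2, Fbn1, Eln, Postn, Tnc, Dpt, Clec3b and Fap, out of 28786 genes and transcripts on the array. They were taken by the gene names in the scanner file of tumour 2 and are represented by 15 non-control spots, each a different probe. They were picked because fibroblast genes had been seen to be higher in tumour 1, so their differences between the tumours describe what was selected and support nothing further.

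Microfibrils are thin extracellular filaments built from fibrillin, and they form the scaffold on which elastin is deposited to make elastic fibres. Fibroblasts secrete these proteins together with matricellular proteins such as periostin and tenascin-C, which regulate how cells meet the matrix rather than bear its load. In tumours the same genes are expressed by stromal fibroblasts and can also be expressed by tumour cells of mesenchymal origin.

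The material was 2 tumours from C57BL/6J host mice labelled male, each grown under the skin from 1000000 cells of RMS3 in 200 µl of buffered saline and harvested 2 weeks later. RMS3 is a mouse line that the labels call a PRMS cell line, with the abbreviation left unexplained. Tumour 1 and tumour 2 form 1 group, have 1 single-colour Agilent array each on the same slide, and share every label except their number. The protocol calls the harvested tumours metastatic, whereas the other labels place them where the cells were injected. No uninjected tissue or cultured cells are included, and line and host are both mouse, so a probe does not tell transcripts of the injected cells from those of host fibroblasts. In whole tumours a smaller number of cells of a type and less RNA per cell cannot be told apart either.

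Each side of a difference is 1 tumour, so no test was possible and no p-value is given. Differences are tumour 1 minus tumour 2 in log2, after dividing each processed signal by the 75th percentile of its array, which was 995.0 on array 1 and 901.9 on array 2. A level is the log2 of that scaled signal and can be compared between tumours but not between probes. The scanner software marked 1071 spots as non-uniform on array 1 and 43 on array 2. Repeat spots of 1 probe had a standard deviation of 0.609 (log2) on array 1 when all unflagged spots were used, and of 0.229 once the surroundings of the flags were left out. Values are therefore given first for spots more than 2 rows or columns away from an outlier flag on array 1 or from a spot of high background on array 2, in short spots away from flags. Across the 13945 genes measured in this way the median difference was 0.01 and the standard deviation of the differences 0.55. The standard deviation of a difference among repeat spots of 1 probe was 0.23, which covers error within the slide only. Of 9 muscle markers used to check the tissue, 7 were measured away from flags. Myog, a transcription factor of muscle differentiation, was well above background in both tumours, at levels of -2.24 in tumour 1 and -2.11 in tumour 2. Myod1 was dim, at -5.24 in tumour 1 and -5.59 in tumour 2. The lowest levels called well above background were -5.78 in tumour 1 and -6.19 in tumour 2.

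All 15 spots of the 10 genes were well above background on both arrays, and none was saturated. Over all genes with a spot away from flags, 61.2% were above background on both arrays. Of the 15 spots 9 lay away from flags, and they measured 7 of the genes. The spots of Tnc, Dpt and Clec3b and 1 of the 2 spots of Fap lay within the margin, so for Tnc, Dpt and Clec3b no value away from flags exists.

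**Figure D1:**
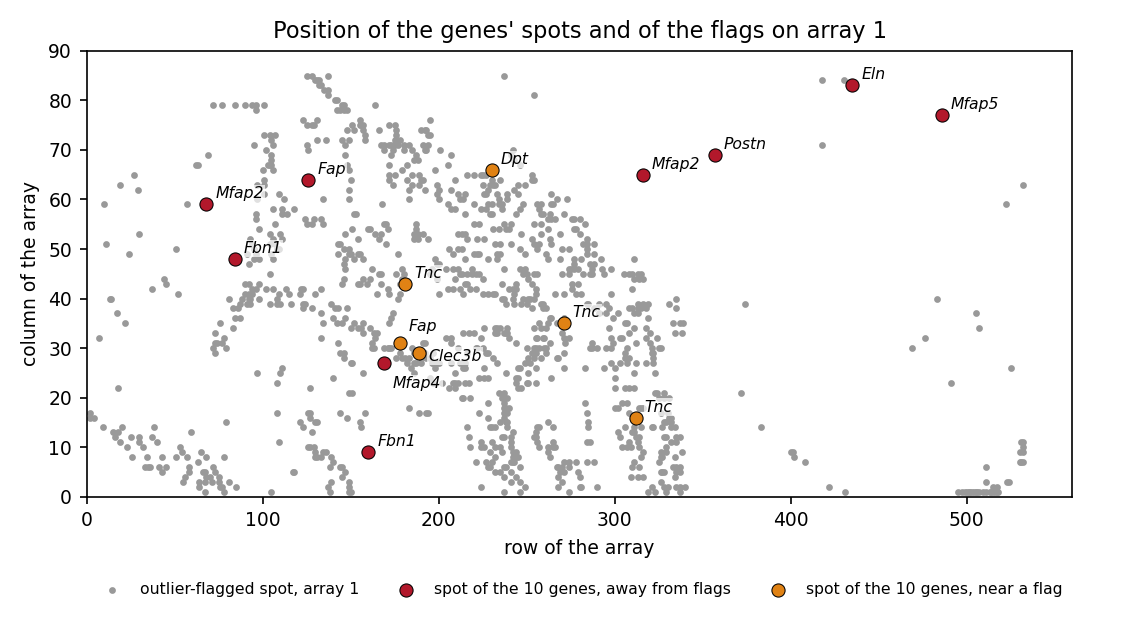
Position (row and column of the array) of the 15 spots of the 10 genes among the outlier-flagged spots of array 1, drawn in grey. The spots of Mfap5, Postn and Eln lie beyond row 338, below most of the flags, while those of Tnc, Dpt and Clec3b and 1 of Fap lie within 2 rows and columns of a flag.

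Mfap5, Postn and Mfap4 were at least 2-fold higher in tumour 1, which is 3 of the 7 genes measured, and none reached 2-fold in the other direction. Of all genes measured away from flags 3.87% passed 2-fold towards tumour 1 and 2.59% towards tumour 2. Since the genes were chosen for this difference, the counts only say how many of them carry it at this size. The other 4, Fap, Fbn1, Mfap2 and Eln, lay between 0.19 and 0.66, all on the side of tumour 1. The median of the 7 was 0.66, against 0.01 for all genes, of which 51.6% were higher in tumour 1 by any amount. When every unflagged spot was used, all 10 genes had a value, 3 of them at least 2-fold towards tumour 1 (6.44% of all genes) and none towards tumour 2 (5.15% of all genes). In that setting 9 of the 10 were above 0, against 66.2% of all genes.

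**Figure D2:**
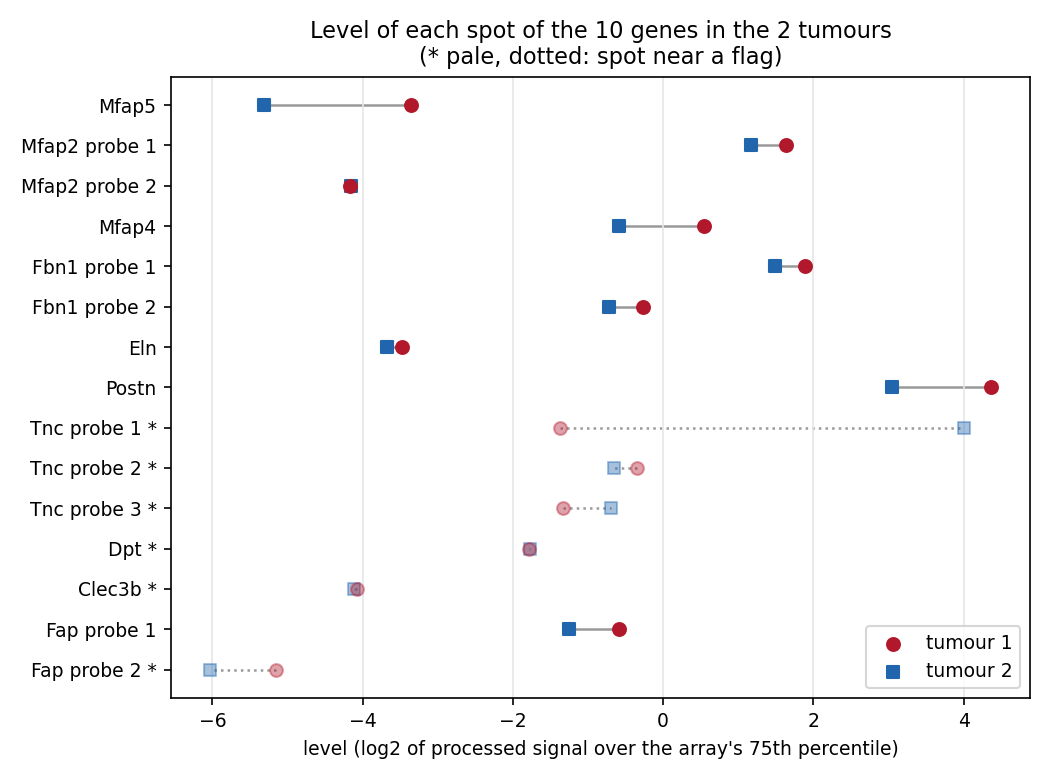
Level (log2 of the processed signal over the array's 75th percentile) of each of the 15 spots in tumour 1 (circles) and tumour 2 (squares), with 1 array per tumour. The widest gaps away from flags are those of Mfap5, Postn and Mfap4, and the dotted gap of Tnc probe 1 runs the other way.

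The microfibril-associated glycoproteins gave unlike values. Mfap5 encodes MAGP-2, which binds fibrillin and carries an integrin-binding motif. Its single spot had a processed signal of 97.0 ± 10.5 in tumour 1 and 22.7 ± 3.72 in tumour 2, where the error is the scanner software's for 1 spot. Its level was -3.36 in tumour 1 and -5.31 in tumour 2, which is a difference of 1.95 or 3.86-fold (mean level -4.33 ± 1.38, SD, n = 2). This was the 49th largest difference towards tumour 1 among the 13945 genes. The signal in tumour 2 was dim, against a lowest level of -6.19 among spots called well above background on that array. With normexp background correction, which adds an offset and so shrinks folds of dim probes, the difference of Mfap5 was 0.82 and no longer reached 2-fold.

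Mfap2 encodes MAGP-1, the related glycoprotein found on most microfibrils. One probe had a signal of 3100.0 ± 310.0 in tumour 1 and 2025.0 ± 203.0 in tumour 2, which is a difference of 0.47. The other had 55.1 ± 6.6 in tumour 1 and 51.0 ± 5.68 in tumour 2, which is a difference of -0.03. The gap of Mfap2 between probes was larger than that of most genes, the median gap being 0.29 over the 2678 genes with 2 probes measured away from flags. The median of the probes, 0.22 (mean level -1.38 ± 0.16, SD, n = 2), was within the error of repeat spots. That error pools all repeated probes and was not measured for dim probes apart, so the difference of Mfap5 is not set against it.

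Mfap4 encodes a fibrinogen-related glycoprotein that binds elastin and fibrillin and is not a member of the MAGP pair. Its single spot had a signal of 1460.0 ± 147.0 in tumour 1 and 599.0 ± 60.0 in tumour 2. The levels were 0.55 in tumour 1 and -0.59 in tumour 2, which is a difference of 1.14 or 2.21-fold (mean level -0.02 ± 0.81, SD, n = 2). The spot lies 3 steps from the nearest flag, and of its 69 measured neighbours within 5 rows and columns 4 were at least 4-fold lower in tumour 1. The median of these neighbours was 0.01, and the part of the array surface in the value of Mfap4 was not tested. With a margin of 4 rows and columns Mfap4 had no value.

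The structural proteins themselves differed less. Fbn1 encodes fibrillin-1, the main protein of microfibrils, and its 2 probes gave close values. One had 3680.0 ± 368.0 in tumour 1 and 2537.0 ± 254.0 in tumour 2, and the other 827.0 ± 82.8 in tumour 1 and 549.0 ± 55.0 in tumour 2. The differences were 0.39 and 0.45, with a median of 0.42 or 1.34-fold (mean level 0.60 ± 0.30, SD, n = 2). The signal of Fbn1 was thus higher in tumour 1 at each probe, and neither probe reached 2-fold.

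Eln encodes tropoelastin, the soluble precursor that is crosslinked into the elastic core. Its single spot had a signal of 89.5 ± 9.76 in tumour 1 and 71.1 ± 7.67 in tumour 2, which is a difference of 0.19 or 1.14-fold (mean level -3.57 ± 0.13, SD, n = 2). The difference of Eln was smaller than the error of repeat spots, so the tumours could not be told apart at this probe.

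Postn encodes periostin, a matricellular protein of activated fibroblasts that binds integrins and collagen. Its single spot had a signal of 20500.0 ± 2050.0 in tumour 1 and 7473.0 ± 747.0 in tumour 2. The level was 4.36 in tumour 1 and 3.05 in tumour 2, which is a difference of 1.31 or 2.49-fold (mean level 3.71 ± 0.93, SD, n = 2). The spot lies 29 steps from the nearest flag, and its 74 neighbours had a median difference of -0.01. Postn was at least 2-fold higher in tumour 1 under each of the 12 alternatives, between 1.30 and 1.51. All of them use this same spot, so they show the effect of processing alone.

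Fap encodes fibroblast activation protein, a membrane-bound serine protease of stromal fibroblasts. Its probe away from flags had 661.0 ± 66.2 in tumour 1 and 378.0 ± 37.9 in tumour 2, which is a difference of 0.66 or 1.59-fold. The second probe of Fap, near a flag, was dim, with 27.8 ± 4.75 in tumour 1 and 13.8 ± 2.89 in tumour 2, which is a difference of 0.86. Both probes of Fap were thus higher in tumour 1, and neither reached 2-fold.

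**Figure D3:**
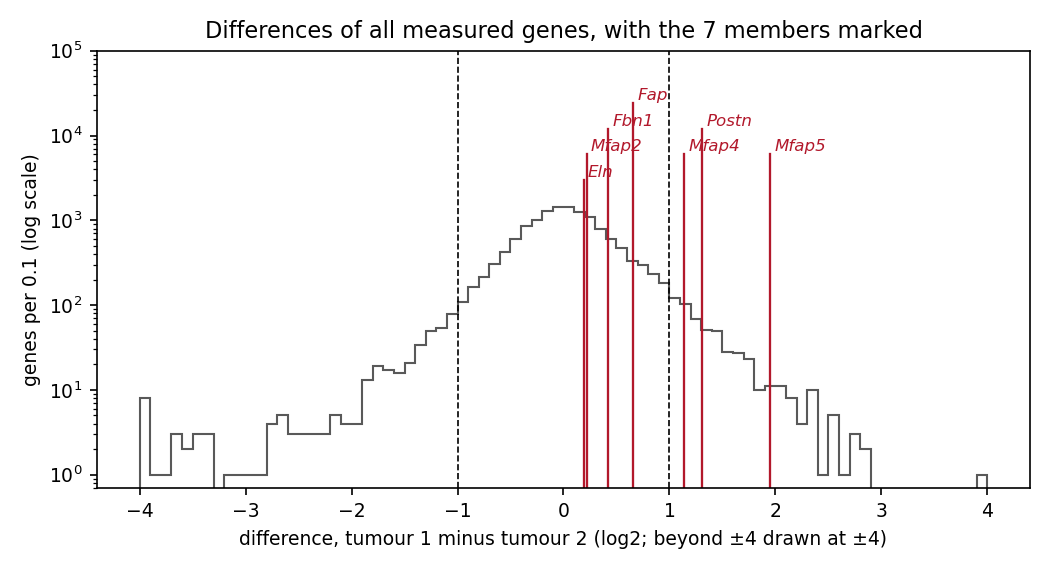
Number of genes (log scale) by difference, tumour 1 minus tumour 2 (log2), over the 13945 genes measured away from flags, with the 7 genes marked and dashed lines at 2-fold. Mfap5 lies in the outer right tail at 1.95, Postn and Mfap4 lie beyond the line, and Fap, Fbn1, Mfap2 and Eln lie inside it.

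Dpt, Clec3b and Tnc had spots near flags alone. Dpt encodes dermatopontin, a small matrix protein that binds decorin. Its spot had 287.0 ± 29.0 in tumour 1 and 264.0 ± 26.6 in tumour 2, which is a difference of -0.02 on the scale of the spots away from flags and of 0.17 on that of all unflagged spots. Clec3b encodes tetranectin, a lectin-like protein that binds plasminogen, and its spot had 59.1 ± 7.04 in tumour 1 and 51.8 ± 5.77 in tumour 2, which is a difference of 0.05, or 0.25 on the scale of all unflagged spots. The 53 neighbours of Clec3b had a median of -0.23 and 8 of them were at least 4-fold lower in tumour 1. The part of the array surface in the value of Clec3b was not tested.

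The 3 probes of Tnc, the gene of the matricellular protein tenascin-C, gave unlike values. Probe A_51_P291438 had 386.0 ± 38.8 in tumour 1 and 14514.0 ± 1450.0 in tumour 2, which is a difference of -5.37. Probe A_51_P324992 had 781.0 ± 78.2 in tumour 1 and 569.0 ± 57.0 in tumour 2, which is a difference of 0.31. Probe A_52_P355169 had 395.0 ± 39.7 in tumour 1 and 559.0 ± 56.0 in tumour 2, which is a difference of -0.64. Probes A_51_P291438 and A_52_P355169, both lower in tumour 1, are annotated to the same RefSeq transcript. Probe A_51_P324992 is annotated to another transcript record. Around probe A_51_P291438 36 neighbours were measured, 11 of them at least 4-fold lower in tumour 1, with a median of -0.70. The neighbourhoods of A_51_P324992 and A_52_P355169 had medians of 0.02 and 0.12, with 4 of 63 and 0 of 71 neighbours at least 4-fold lower. The probes of Tnc ran both ways and all lay near flags, so no direction is given for Tnc.

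Across the 9 spots of the 7 genes away from flags the medians of the neighbouring spots lay between -0.14 and 0.11. The differences of Mfap5, Postn and Mfap4 were 1.93, 1.32 and 1.13 after subtracting the median of their own neighbours.

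Partners of the same fibres, chosen by role, lay on both sides. Of 24 further elastic fibre and microfibril genes on the array 20 were measured away from flags, 9 of them higher in tumour 1. None reached 2-fold towards tumour 1 and 2 reached it towards tumour 2, and the list's median was -0.20. Fbn2, the fibrillin of developing tissue, was at 0.45 in tumour 1 and at 0.88 in tumour 2, a difference of -0.43. Fbln5, which tethers elastin to cells, differed by 0.18.

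The 2 partners at least 2-fold higher in tumour 2 were Ltbp1 and Fbln1. Ltbp1 holds latent TGF-beta on microfibrils and was at -3.93 in tumour 1 and at -2.75 in tumour 2, a difference of -1.18. Fbln1 encodes fibulin-1, a protein of elastic fibres and basement membranes, and was at -0.35 in tumour 1 and at 0.78 in tumour 2, a difference of -1.13. With all unflagged spots, which also shifted all genes by 0.18 towards tumour 1, Ltbp1 differed by -0.45 and Fbln1 by -0.67, and neither reached 2-fold. Lox, the enzyme that crosslinks elastin and collagen, had no spot away from flags and differed by 1.09 with all unflagged spots.

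Of 19 other matricellular genes 13 were measured, 5 of them higher in tumour 1, and the list's median was -0.04. The one at least 2-fold higher in tumour 1 was Ccn5, a growth-restraining member of the CCN family, at -2.98 in tumour 1 and -4.15 in tumour 2 (1.17, and 0.70 with normexp). Thbs1, which encodes the TGF-beta activator thrombospondin-1, was at 0.80 in tumour 1 and at 1.75 in tumour 2, a difference of -0.95. Sparc, Tgfbi and Ccn2, which encode osteonectin, a TGF-beta-induced adhesion protein and connective tissue growth factor, differed by 0.12, 0.20 and -0.29. Tnxb, the tenascin of loose connective tissue, has 2 probes away from flags and was well above background in tumour 1 alone. By its brightest probe called there it was at least 1.73-fold higher in tumour 1. That bound sets its level in tumour 1 against the lowest level called well above background on array 2.

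**Figure D4:**
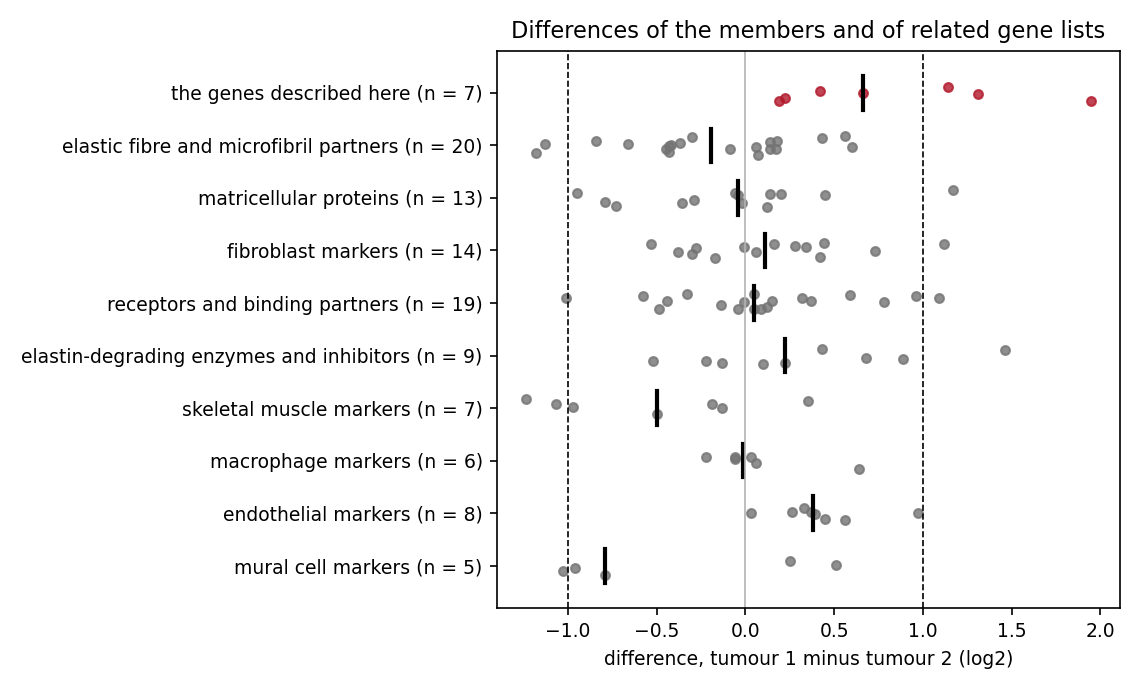
Difference, tumour 1 minus tumour 2 (log2), of each measured gene (points) in the set described here and in 9 related lists, with the median of each list as a black bar and dashed lines at 2-fold. The median of the set is 0.66, and the medians of elastic fibre partners, matricellular genes and fibroblast markers lie between -0.20 and 0.11. The set was picked for higher values in tumour 1 and the lists by role, so a higher median of the set follows from that choice.

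Integrins and growth factor genes that meet these proteins were mixed. Of 21 receptors and binding partners 19 were measured, 11 of them higher in tumour 1, and the list's median was 0.05. Itgb8, an integrin subunit that activates latent TGF-beta, was 2.12-fold higher in tumour 1 (1.09, with its 2 probes at 0.46 and 1.71), and reached 2-fold in 6 of 11 alternatives. Itgav and Itgb3, the subunits of the integrin that binds periostin and MAGP-2, differed by -0.58 and 0.12, and Tgfb1 by -0.01. The 4 probes of Itgav lay between -0.95 and 0.27. Plg, the plasminogen gene, has 2 probes away from flags and was above background in tumour 1 alone. By its brightest probe called there it was at least 7.29-fold higher in tumour 1.

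Of 11 elastin-degrading enzymes and their inhibitors 9 were measured, 6 of them higher in tumour 1, and the list's median was 0.22. Mmp12, the elastase of macrophages, was at -0.57 in tumour 1 and at -2.03 in tumour 2, a difference of 1.46 or 2.75-fold. The gelatinase gene Mmp2, the cathepsin gene Ctss and the inhibitor gene Timp1 differed by 0.10, 0.68 and 0.22. Mmp12 was the only gene of this list at least 2-fold apart.

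General fibroblast markers lay close to level between the tumours by their median, with single genes on both sides. Of 19 such genes 14 were measured, 8 of them higher in tumour 1, and the list's median was 0.11. Their summed scaled signal was 344.0 in tumour 1 and 344.0 in tumour 2, a sum in which the brightest genes weigh most. The exception at 2-fold was Dcn, the proteoglycan decorin, at 2.28 in tumour 1 and 1.16 in tumour 2 (1.12, with its 2 probes at 0.57 and 1.67). Dcn was below 2-fold with normexp (0.79) and by its brightest probe (0.57). The receptor Pdgfra, the surface protein Thy1 and the collagen Col1a1 differed by 0.16, -0.28 and 0.34. The 2 probes of Pdgfra were at -0.25 and 0.57, those of Thy1 at -0.86 and 0.31, and those of Col1a1 at 0.20 and 0.48. No direction is therefore given for Pdgfra and Thy1.

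Markers of other cell types moved in both directions beside the set. All 8 endothelial markers measured were higher in tumour 1. Their differences had a median of 0.38 and none reached 2-fold. The summed scaled signal of the endothelial markers was 10.2 in tumour 1 and 7.19 in tumour 2. With all unflagged spots 7 of the 8 endothelial markers were higher in tumour 1. Of 7 adipocyte markers 3 were measured, with differences from -0.70 to 1.69 and a median of 0.41 that lay between -0.06 and 0.64 under the alternatives. The highest was Cfd, the adipsin gene, 3.23-fold higher in tumour 1. The summed scaled signal of these 3 adipocyte markers was 2.28 in tumour 1 and 1.83 in tumour 2. Adipoq was above background in tumour 1 alone, at least 1.45-fold higher there. Plin1 was above background in tumour 2 alone, at least 2.6-fold higher there. All 3 Schwann cell markers measured were higher in tumour 1, at a median of 0.55. Their summed scaled signal was dim, 0.125 in tumour 1 and 0.0887 in tumour 2. With all unflagged spots 3 of 5 Schwann cell markers were higher in tumour 1, and their median was 0.29. Of the 6 macrophage markers measured 3 were higher in tumour 1, and their median was -0.01. The part of endothelial, adipose and nerve tissue in the differences of Mfap5, Postn and Mfap4 was not tested.

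On the side of tumour 2, 6 of 7 muscle markers were higher there, with a median of -0.50 and a summed scaled signal of 5.81 in tumour 1 and 10.4 in tumour 2. Des, the muscle intermediate filament, and Myh3, the embryonic myosin, differed by -1.24 and -1.07. Of 5 mural cell markers 2 were higher in tumour 1, with a range from -1.03 for Tagln, a smooth muscle actin-binding protein, to 0.51. Their median of -0.79 was -0.17 with all unflagged spots. The 2 erythroid markers measured lay at a median of -0.94, both towards tumour 2, with a summed scaled signal of 14.6 in tumour 1 and 27.2 in tumour 2. Krt5 and Krt14, keratins of the basal layer, had differences of -3.55 and -3.64, and the other 2 of the 4 keratinocyte markers measured lay at -0.06 and -0.26. Krt1, a keratin of the upper epidermis, was above background in tumour 1 alone, at least 2.96-fold higher there. Krt10 of the same list was above background in tumour 2 alone, at least 1.01-fold higher there. The median of the keratinocyte markers was -1.90, or -0.07 over 5 genes with all unflagged spots, of which 2 were higher in tumour 1. The part of muscle, mural cells, blood and epidermis in the differences of the set was not tested.

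RefSeq promoter windows could be set side by side for 5 of the 10 genes. Windows of the 250 bases before each annotated start (GRCm38.p6) were found for Mfap2, Fbn1, Postn, Tnc and Dpt, 8 in all. Mfap5, Mfap4, Eln, Clec3b and Fap were not matched. The windows of Postn and Fbn1 are shown because Postn was at least 2-fold higher in tumour 1 and Fbn1 was not. Postn is shown at chr3:54360857-54361106 on the plus strand and Fbn1 at chr2:125506439-125506688 on the minus strand. Capitals mark TATAAA and GGGCGG, searched on both strands.
Postn: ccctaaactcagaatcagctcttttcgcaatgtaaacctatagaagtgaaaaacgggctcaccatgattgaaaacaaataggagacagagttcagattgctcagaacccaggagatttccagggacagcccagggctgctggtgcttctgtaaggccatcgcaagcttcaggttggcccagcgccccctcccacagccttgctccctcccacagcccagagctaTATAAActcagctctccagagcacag
Fbn1: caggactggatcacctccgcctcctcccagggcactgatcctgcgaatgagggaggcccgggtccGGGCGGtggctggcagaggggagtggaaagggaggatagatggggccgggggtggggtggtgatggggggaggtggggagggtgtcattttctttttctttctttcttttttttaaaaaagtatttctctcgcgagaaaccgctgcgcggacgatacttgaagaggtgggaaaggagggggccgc

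Postn has windows for 2 annotated starts, and in the one shown TATAAA begins 26 bases before the start. The window shown has a GC content of 52.0% and 4 CpG dinucleotides, near the medians of 52.4% and 6 over all 32817 windows. The window of the other Postn start, at chr3:54359017-54359266, holds no TATAAA and has a GC content of 40.4% and 3 CpG dinucleotides. Which Postn start these tumours used was not measured. The Fbn1 window has no TATAAA, 1 GGGCGG, a GC content of 59.2% and 13 CpG dinucleotides. Over all windows 12.4% hold TATAAA and 32.7% hold GGGCGG, the letters of the TATA box and the GC box. The overlapping windows of the 2 Tnc starts share 1 TATAAA, which lies 126 bases before the upstream start. No window of the 5 genes holds TGANTCA, the letters of an AP-1 site, which 6.75% of all windows hold. A match is a run of letters and not a shown binding site.

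**Figure D5:**
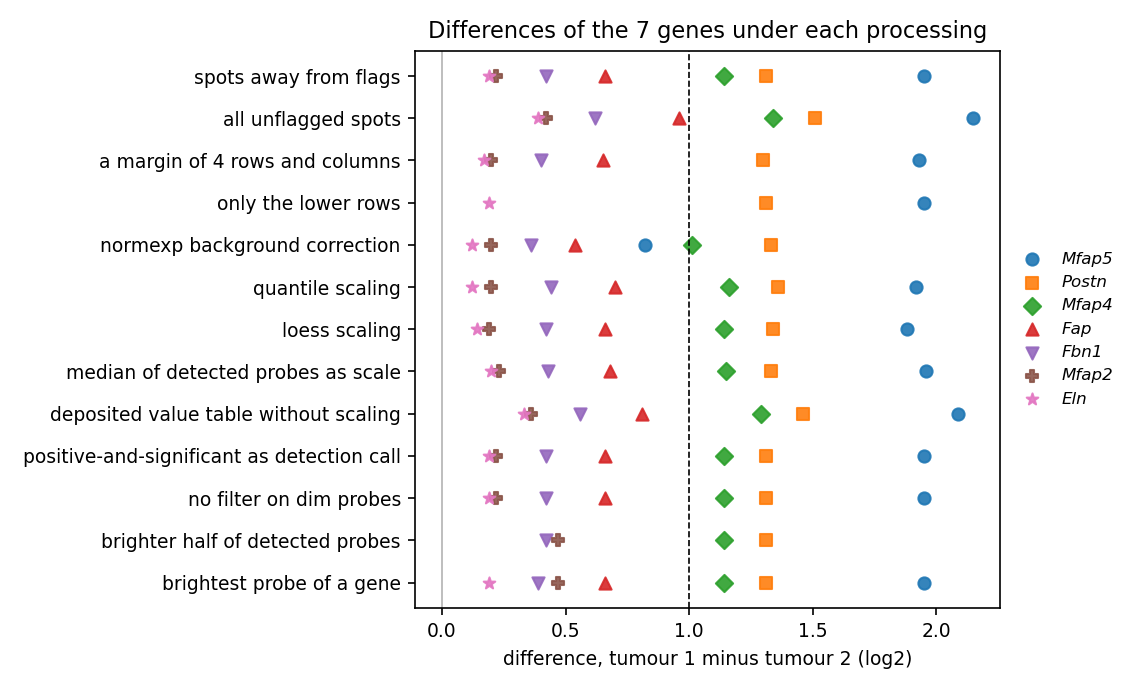
Difference, tumour 1 minus tumour 2 (log2), of the 7 genes with spots away from flags (top row) and under 12 alternative ways of processing, with a dashed line at 2-fold; a missing point means that the gene had no value. Postn stays beyond the line in every row, Mfap5 falls to 0.82 with normexp, and Fap, Fbn1, Mfap2 and Eln stay between 0 and 1.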

How the data were processed

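Total RNA of the 2 tumours was labelled with Cy3, per the labels' protocols. The intensity columns used (processed, mean and local background) were deposited as written by Agilent Feature Extraction 9.1.3.1 per the file headers, while the submitters' processing notes name version 8. Per the file headers, the software had detrended the processed intensity on each array and was set to use surrogates for dim spots. A genome build is not given in the sources used here. The deposited value table was the processed intensity, uncentred and unscaled, with medians of 63.3 and 67.5.

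Here, log2 of the processed signal was taken relative to the 75th percentile of the non-control spots of its array. Flagged spots, and those up to 2 rows and columns away from a flag on array 1 or from a local background above 100 on array 2, were left out, keeping 72.2% of 43379 spots. Spots of a probe were averaged, and a gene took the median over probes well above background on both arrays. Gene symbols came from the file of tumour 2, updated by accession to RefSeq symbols of GRCm38.p6. Of non-control spots 62.3% were well above background in tumour 1 and 66.1% in tumour 2, and having 2 arrays limits the precision. Slide and scan are shared, so no batch could be examined.

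The 10 genes and all lists were chosen with earlier results of these data known. The text names all 10 genes and, from each list, the first 4 genes, genes at least 2-fold apart and genes above background on 1 array only; not all of these are named. The procedure was tested on simulated data, in which both arrays were copies of array 2 with added noise. Loss of signal near the flags of array 1 and differences of dim probes were not simulated. Alternatives covered the margin around flags, the lower rows, normexp (offset 50), scaling by quantile, loess (span 0.3) or median, no scaling, the detection call, the filter on dim probes and the brightest probe. Python 3.11.15 with statsmodels 0.14.6 was used, and R 4.3.3 with limma 3.58.1 for normexp.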

Additional observations from a re-analysis of the deposited data

How the results depend on the processing

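The number of the 7 measured genes at least 2-fold higher in tumour 1 was 3, and it lay between 2 and 3 under the 12 alternatives. None was at least 2-fold higher in tumour 2 under any of them. Mfap5 lost this size with normexp (0.82), Mfap4 had no value with the wider margin and in the lower rows, and Mfap5 was left out when only brighter probes counted. In the lower rows 3 genes were well above background, all 3 higher in tumour 1, against 48.3% of all genes. The median was 1.31 in place of 0.66, because only Mfap5, Postn and Eln have spots there. With only the brighter probes 4 genes were measured, all 4 higher in tumour 1, against 48.7% of all genes. With all unflagged spots 10 genes were measured and 9 lay towards tumour 1, with a median of 0.52, while 66.2% of all genes were higher in tumour 1. Without scaling, 65.9% of all genes were higher in tumour 1, their median was 0.16, and 807 were at least 2-fold higher in tumour 1 against 261 in tumour 2, in place of 539 against 361. Both of these settings and normexp measured 13945 genes, and with normexp the counts were 150 and 172. The number of genes measured differed in the other settings. The counts were 1083 and 866 of 16812 with all unflagged spots, and 409 and 228 of 11487 with the wider margin. In the lower rows they were 269 and 153 of 8042, and with the other detection call 993 and 645 of 16777. Without a filter they were 1315 and 913 of 22780, and for the brighter probes 84 and 107 of 7534. Leaving out either tumour, 7 genes were above background on the remaining array.

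No called difference changed sign. The median of the elastic fibre partners lay between -0.23 and 0.0, that of the fibroblast markers between 0.03 and 0.32, and that of the endothelial markers between 0.29 and 0.67. Wider ranges were those of the keratinocyte markers, between -1.94 and -0.06, of the mural cell markers, between -0.93 and -0.17, of the skeletal muscle markers, between -0.77 and -0.19, of the adipocyte markers, between -0.06 and 0.64, and of the T cell markers (1 gene away from flags), between -0.35 and 0.14. A difference or median counted as moved when it changed by more than the error of repeat spots, 0.23, and a count when it changed by more than 1.5 times. No paired analysis was possible because there is 1 group. Dim probes limit the folds of Mfap5 and Ccn5. Dcn reached 2-fold in 9 of 12 alternatives, Itgb8 in 6 of 11, Ltbp1 in 9 of 11 and Fbln1 in 8 of 10.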
